A study of Mus musculus with 23 samples.

Results

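The genes described here encode subunits of the mitochondrial respiratory chain and of ATP synthase, from both the nuclear and the mitochondrial genome. They were taken by name from the gene count table: names that begin with Nduf and a subunit letter and number, with Uqcr, with Cox4 to Cox8, with Atp5, or with mt- followed by Nd, Co, Cytb or Atp, without pseudogene names. Of 49492 genes, 93 matched, 80 of them nuclear and 13 mitochondrial. A filter on low counts left 86 for testing, 75 nuclear and 11 mitochondrial. The nuclear genes tested comprised 35 of complex I, 8 of complex III, 15 of complex IV and 15 of ATP synthase. Atp5s and Atp5sl were kept apart, since their products are not subunits of ATP synthase in spite of their names. Ndufa4 was counted with complex IV, where its protein is now placed. The 7 genes not tested were Ndufa4l2, Cox8c, Cox4i2, Cox7b2, Cox8b, mt-Co2 and mt-Atp8.

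The study sequenced polyadenylated RNA of CD8+ T cells from mouse spleen. Both strains carry loxP-flanked Plpp1, a gene for a lipid phosphate phosphatase. Cells of PLPP1fl/fl animals (WT) have no Cre, and cells of Lckcre-PLPP1fl/fl animals (KO) also carry Cre recombinase under the promoter of Lck, which is active in the T cell lineage. Cells of each genotype were untreated, given arachidonic acid (AA) or given octadecenoic acid (OA). There were 4 libraries in each of the 6 groups except KO with OA, which had 3. Doses and times of the fatty acids were not in the labels, so differences between AA and OA may include a difference in dose or time.

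Electrons from NADH enter the chain at complex I, pass through ubiquinone to complex III, and go by cytochrome c to complex IV, which reduces oxygen. The protons pumped on the way drive ATP synthase, also called complex V. Most subunits are encoded in the nucleus and imported, while a small core set of complexes I, III and IV and of ATP synthase is encoded and translated inside the mitochondrion, so each of these enzymes is built from the products of both genomes. Naive T cells are small and quiescent, and respiration rises as they are activated and as they form memory cells. Arachidonic and octadecenoic acids are also substrates of mitochondrial beta-oxidation, whose electrons join the chain through electron transfer flavoprotein.

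The mitochondrial rows of the table need care, because a stretch of nuclear chromosome 1 carries a copy of mitochondrial DNA that is annotated as separate genes. The first 60 bases of the coding sequence of mt-Co2, and of its chromosome 1 copy Gm28661, show why their reads cannot be told apart. No capital marks a difference, since there was none.
mt-Co2: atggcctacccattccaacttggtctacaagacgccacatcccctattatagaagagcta
Gm28661: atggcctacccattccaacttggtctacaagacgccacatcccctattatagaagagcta
Of the 50-base stretches of mt-Nd3, 98% also occur in its copy Gm28438. The first 60 bases of both are shown with their single difference in capitals. It is T3C, counted from the first base of mt-Nd3.
mt-Nd3: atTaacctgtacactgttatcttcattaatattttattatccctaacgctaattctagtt
Gm28438: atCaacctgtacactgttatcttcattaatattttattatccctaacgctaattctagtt
The whole 681 bases of Gm28661, at chr1:24614885-24615565 on the minus strand of GRCm38, matched mt-Co2 with 0 mismatches. Pseudogenes on other chromosomes also share stretches with mt-Nd2, mt-Co1, mt-Co2, mt-Atp6 and mt-Nd5, and their counts were not used here. In mt-Co1, 51.1% of 50-base stretches occur in other genes.

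Total counts per library ranged from 39265131 to 58878203, and values are given as CPM, counts scaled to the TMM-adjusted size of each library. Changes are log2 differences from edgeR's quasi-likelihood test over 18015 genes, with Benjamini-Hochberg adjusted p-values, and "higher" or "lower" is used of a gene whose adjusted p was under 0.05. The labels do not say that the libraries of a group came from separate animals, so a p-value here speaks of the variation from library to library, which may be technical. Plpp1 had 15 to 39 counts in any library and did not pass in KO against WT (log2 -0.12, adjusted p = 0.774 untreated), so its count does not check the genotype labels. Xist, the RNA of the inactive X chromosome, read 784 to 884 CPM in the WT libraries and 2.98 to 5.35 in the KO libraries, and the T cell receptor segment Trbv12-1 also differed, with 153 to 177 CPM in WT against 6.48 to 9.27 in KO. By Xist, the WT libraries read as female and the KO libraries as male. Sex, and whatever else these genes differ with, cannot be told apart from Plpp1 genotype in any comparison of KO with WT here. The same holds for Cre itself. The 8 CD8 T cell markers summed to less in KO than in WT under each treatment, without overlap. Untreated, the sums were 2390 to 2470 CPM against 2520 to 2630. They were 2190 to 2310 against 2490 to 2570 with AA, and 2170 to 2260 against 2490 to 2670 with OA. By gene, 2 of the 8 were higher and 4 lower untreated. With AA 0 were higher and 6 lower, and with OA 0 and 5. Among other cell types, the 6 B cell markers summed to 267 to 318 CPM over all groups, with Ms4a1 and Pax5 at a median of 0 counts, and those of erythroid cells to at most 1.2 CPM.

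Per kilobase of exon, most mitochondrial rows were far more abundant than nuclear genes. The tested mitochondrial genes had a median of 1760 CPM per kb, and the tested nuclear genes a median of 21.5 CPM per kb. Exceptions were mt-Nd3 at 20.8, mt-Co3 at 0.509 and mt-Atp6 at 0.473 CPM per kb, genes with chromosome 1 copies. Among nuclear genes Atp5h, a subunit of the peripheral stalk of ATP synthase, was at 281 CPM per kb, followed by Atp5b and Atp5a1, which encode the catalytic beta and the alpha subunits, at 213 and 155. The hinge protein of complex III, Uqcrh, was at 153. The median level per kb was close among the enzymes, 21.5 in complex I, 30.9 in complex III, 21.6 in complex IV and 20.2 in ATP synthase. The spread within each was wide: in complex IV it ran from 0.254 for Cox6a2, the muscle and heart form of its subunit, to 121 for Cox5b.

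The nuclear genes and the mitochondrial rows were both higher in KO than in WT. Summed over the 80 nuclear genes, untreated WT libraries read 5518, 5273, 5317 and 5171 CPM, and untreated KO libraries 6710, 6614, 6540 and 6404 CPM. The groups did not overlap, and the KO mean was 23.4% above WT. The 13 mitochondrial rows read 16100, 16200, 14560 and 16460 CPM in untreated WT and 18420, 16940, 19280 and 20160 CPM in untreated KO. These groups also did not overlap, with KO 18.1% above WT. The ratio of the mitochondrial rows to the nuclear sum was 2.98 ± 0.194 in untreated WT (SD, n = 4) and 2.85 ± 0.254 in untreated KO (SD, n = 4), and the libraries overlapped. With the counts on the chromosome 1 copies added to the rows, it was 4.59 ± 0.25 in WT and 4.30 ± 0.301 in KO (SD, n = 4 each), also with overlap. In bulk RNA a smaller share of cells that express a gene and less RNA per cell cannot be told apart.

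By enzyme, the nuclear genes of ATP synthase had the widest gap in untreated cells and those of complex III the narrowest. ATP synthase genes summed to 2602 ± 63.4 CPM in untreated WT and 3423 ± 109 CPM in untreated KO (SD, n = 4 each), 31.6% higher. Complex I rose from 1435 ± 48.9 to 1728 ± 37 CPM, which is 20.4%. Complex IV went from 648.8 ± 27.9 to 743.9 ± 35.6 CPM, 14.7% higher, and complex III from 583.3 ± 22.8 to 636.5 ± 15.3 CPM, 9.13% higher. With OA in both genotypes the gaps were 25.4% for ATP synthase, 20.9% for complex I, 17.6% for complex IV and 10.3% for complex III. With AA they were 18.2%, 18.9%, 22.1% and 8.67% in the same order. Within each of these sums the KO libraries lay above the WT libraries of the same treatment. A few abundant genes weigh most in such sums: Atp5a1 and Atp5b held 47.2% ± 0.677 of the ATP synthase sum in untreated WT and 50.2% ± 1.34 in untreated KO (SD, n = 4 each).

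**Figure D1:**
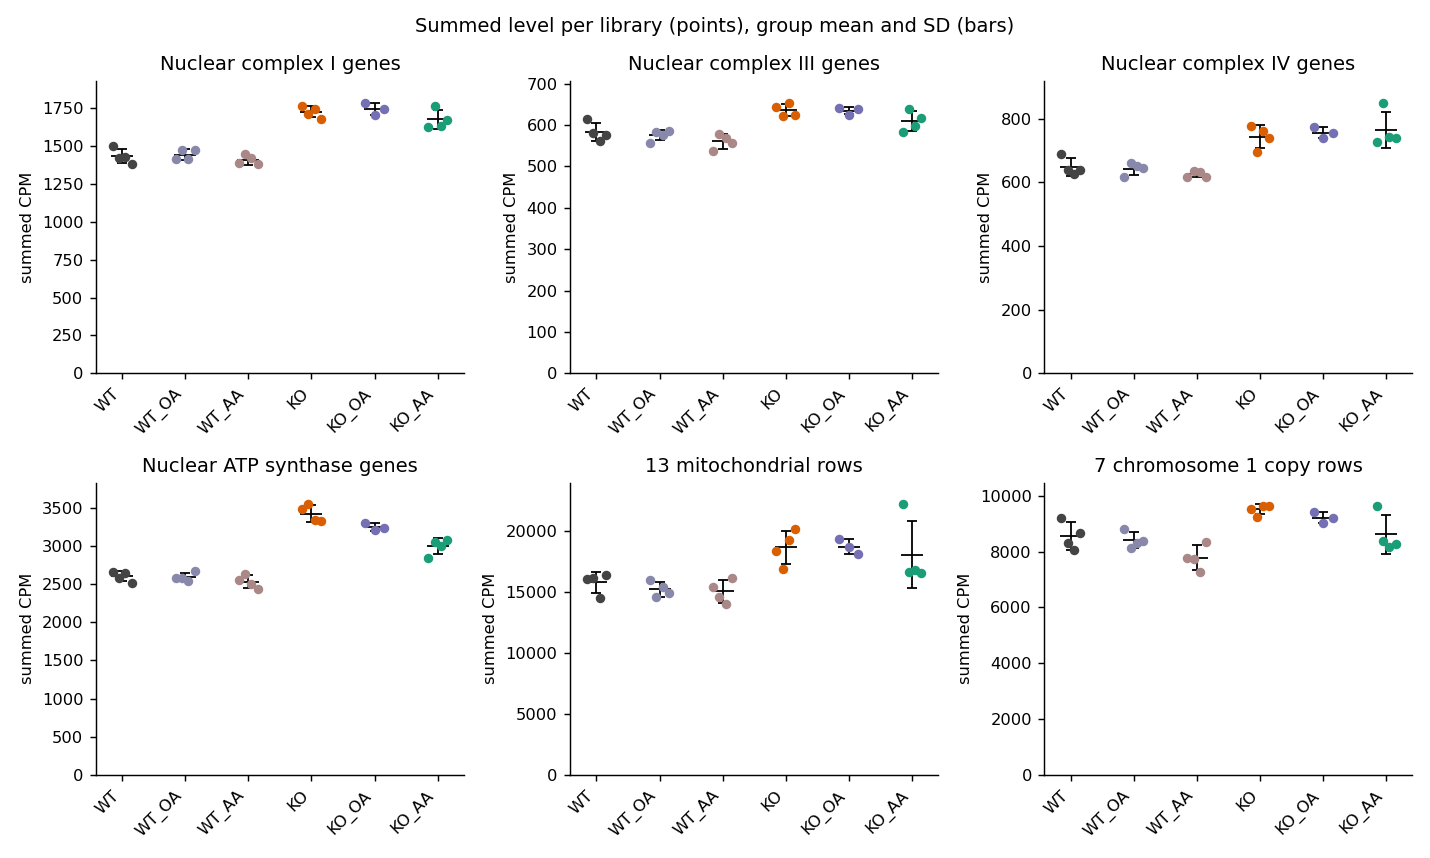
Summed CPM (vertical axis, from 0) in each library of the 6 groups, for the nuclear genes of complexes I, III and IV and of ATP synthase, the 13 mitochondrial rows and the 7 chromosome 1 copies; points are libraries and the bar is the group mean. KO libraries lie above WT libraries in every nuclear panel under the same treatment, and KO with AA replicate 1 stands alone among the mitochondrial rows at 22220 CPM.

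Of the 86 genes tested, 64 were higher and 5 lower in untreated KO than in untreated WT. Over the whole table, 49.8% of genes passed, 25.6% higher and 24.2% lower, and the median over all genes was -0.0029. Among the 86, 80.2% passed. The median of the 86 was 0.288 on the log2 scale. With AA in both genotypes 62 were higher and 3 lower, against 42.7% passing in the table, 21.5% higher. With OA in both, 59 were higher and 2 lower, against 43.1% passing, 21.7% higher. These 3 comparisons share no library, but they share the estimate of the spread and the difference in Xist between the genotypes. In all 3, 42 nuclear and 6 mitochondrial genes were higher, as were 13.7% of all genes tested. Complex I had 28 higher and 1 lower of 35 in untreated cells, complex III 7 and 1 of 8, complex IV 8 and 2 of 15, and ATP synthase 13 and 0 of 15. Untreated KO libraries also read 48.8 to 54.9 CPM over the 5 NK cell markers against 32.3 to 36.8 in untreated WT, but less over the markers of 4 other cell types. These were 20.9 to 24.1 against 28.3 to 30.3 CPM over 4 CD4 T cell markers, 7.79 to 9.72 against 14.4 to 18.1 over 6 dendritic cell markers, 6.26 to 6.72 against 7.38 to 9.06 over 6 macrophage and monocyte markers, and 3.42 to 4.48 against 8.48 to 10.1 over 5 platelet markers. By gene, 2 of 4 tested NK cell markers were higher and 1 lower, and 1 of 4 CD4 T cell markers was higher and 2 lower. Dendritic cell markers had 0 higher and 2 lower of 6, macrophage and monocyte markers 0 and 1 of 5, and platelet markers 0 and 2 of 3. The part of these marker differences, and of the lower CD8 T cell sum, in the result was not tested.

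**Figure D2:**
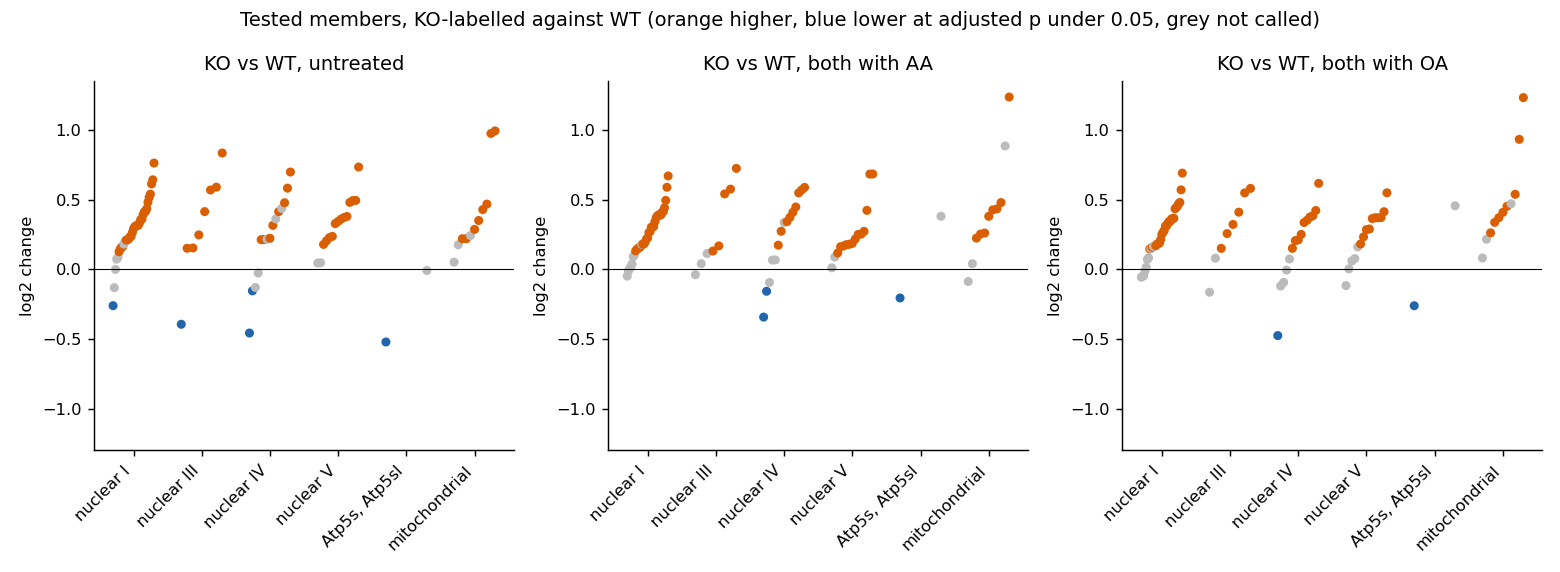
Log2 change of each tested gene in KO against WT (vertical axis) by complex and genome, for untreated cells, cells with AA and cells with OA; orange points were higher, blue points lower and grey points did not pass edgeR's test at an adjusted p of 0.05. Most points lie above 0 in each panel, 64 of 86 being orange in untreated cells.

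Atp5b, the catalytic beta subunit of ATP synthase, showed the pattern in an abundant gene. It read 814, 775, 834 and 772 CPM in untreated WT and 1113, 1178, 1072 and 1091 CPM in untreated KO. No WT library reached the lowest KO library, and the change was 0.48 (SE 0.0353, adjusted p = 5.14e-14). Atp5a1, the alpha subunit, went from 430.6 ± 9.96 to 605.8 ± 48.8 CPM (SD, n = 4 each), a change of 0.49 (adjusted p = 1.85e-11). The c subunit, which forms the rotating ring in the membrane, has 3 genes that encode the same mature protein. Atp5g1 rose by 0.73 (adjusted p = 3.71e-06) and Atp5g3 by 0.20 (adjusted p = 0.00124), while Atp5g2 changed by 0.04 (adjusted p = 0.67). Atp5g1 was the least abundant of them, at 0.708 CPM per kb over all libraries against 8.67 for Atp5g2 and 13.3 for Atp5g3, so it added little to the total. Of the Atp5g2 sequence, 38.3% of 50-base stretches also occur in other genes, mainly a pseudogene, which limits its count.

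In complex I, Ndufs1, the iron-sulfur subunit of the peripheral arm, read 69.9, 69.0, 71.5 and 72.1 CPM in untreated WT and 89.7, 93.2, 92.3 and 95.6 CPM in untreated KO. The libraries were well separated, with a change of 0.39 (SE 0.0333, adjusted p = 2.07e-12). Ndufv1, which carries the flavin that accepts electrons from NADH, rose by 0.31 (adjusted p = 3.02e-07). Among accessory subunits, Ndufa9 rose by 0.41 (adjusted p = 7.3e-13) and Ndufa5 by 0.48 (adjusted p = 8.77e-11). Ndufa12 differed similarly under all 3 treatments, by 0.64 untreated, 0.67 with AA and 0.69 with OA (adjusted p at most 5.17e-09). Ndufb6 had a change of 0.76 (adjusted p = 7.02e-08), but 39.0% of its exonic bases overlap Toporsos on the opposite strand, and whether the counting used strand is not given, so its count is uncertain. Ndufa3 was the complex I gene that read lower, by 0.26 (adjusted p = 0.0278), and this call was lost without KO replicate 4 (adjusted p = 0.196) or without WT replicate 4 (adjusted p = 0.0837).

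Complex III held the largest rise among nuclear genes in untreated cells, and also an abundant gene that fell. Uqcrq, a small subunit close to the ubiquinone sites, read 23.02, 23.4, 27.4 and 26.2 CPM in WT and 47.0, 46.3, 41.4 and 43.3 CPM in KO. Its groups were far apart, with a change of 0.83 (SE 0.0588, adjusted p = 1.73e-14). Uqcrc1, a core subunit, rose by 0.41 (adjusted p = 7.39e-13). Uqcrh, which helps cytochrome c dock on complex III, went the other way. It read 225.7, 209.2, 180.0 and 205.7 CPM in WT and 173.7, 130.2, 174.0 and 146.4 CPM in KO, a fall of 0.39 (adjusted p = 2.86e-06). With AA the change of Uqcrh was -0.04 (adjusted p = 0.663) and with OA -0.17 (adjusted p = 0.0526). Uqcrh held 205.1 of the 583.3 CPM of complex III in untreated WT, so its fall narrows the gap in the sum for that enzyme.

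In complex IV, Cox4i1, the regulatory subunit, rose by 0.22 (adjusted p = 7.52e-05), and Cox7b by 0.48 (adjusted p = 4.06e-11). Cox7b lies on the X chromosome, as do Ndufb11 and Ndufa1. Ndufa4 rose by 0.70 (adjusted p = 2.85e-10), Cox6a1 by 0.58 (adjusted p = 8.42e-08) and Cox6b1 by 0.41 (adjusted p = 5.02e-08). The tissue-restricted forms were low: Cox6a2 was under 0.36 CPM and Cox7a1 under 0.70 CPM in every library, and neither passed. Cox7a2l, whose protein joins complexes III and IV in supercomplexes, fell. It read 60.6, 58.8, 58.5 and 61.1 CPM in untreated WT and 45.8, 40.2, 41.3 and 46.9 CPM in untreated KO. No KO library reached the WT range, and the fall was 0.46 untreated, 0.34 with AA and 0.48 with OA (adjusted p at most 9.81e-08). Its relatives Cox7a2 and Cox7a1 changed by -0.13 (adjusted p = 0.197) and 0.36 (adjusted p = 0.476), so no rise of either passed beside the fall of Cox7a2l. Cox7c fell by 0.16 in untreated cells (adjusted p = 0.00283) and by 0.16 with AA (adjusted p = 0.00267). Some of the sequence of each is also found in pseudogenes, 13.8% of 50-base stretches in Cox7a2l and 22.1% in Cox7c.

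Atp5sl, known in human cells for building the distal membrane arm of complex I, was the other gene lower in KO under each treatment. It read 53.3, 49.2, 50.7 and 49.0 CPM in untreated WT and 34.3, 36.7, 36.4 and 33.3 CPM in untreated KO, a fall of 0.52 (SE 0.0433, adjusted p = 1.2e-12). The fall was 0.21 with AA (adjusted p = 0.000123) and 0.26 with OA (adjusted p = 1.44e-05). It thus moved against most of the complex I subunit genes.

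**Figure D3:**
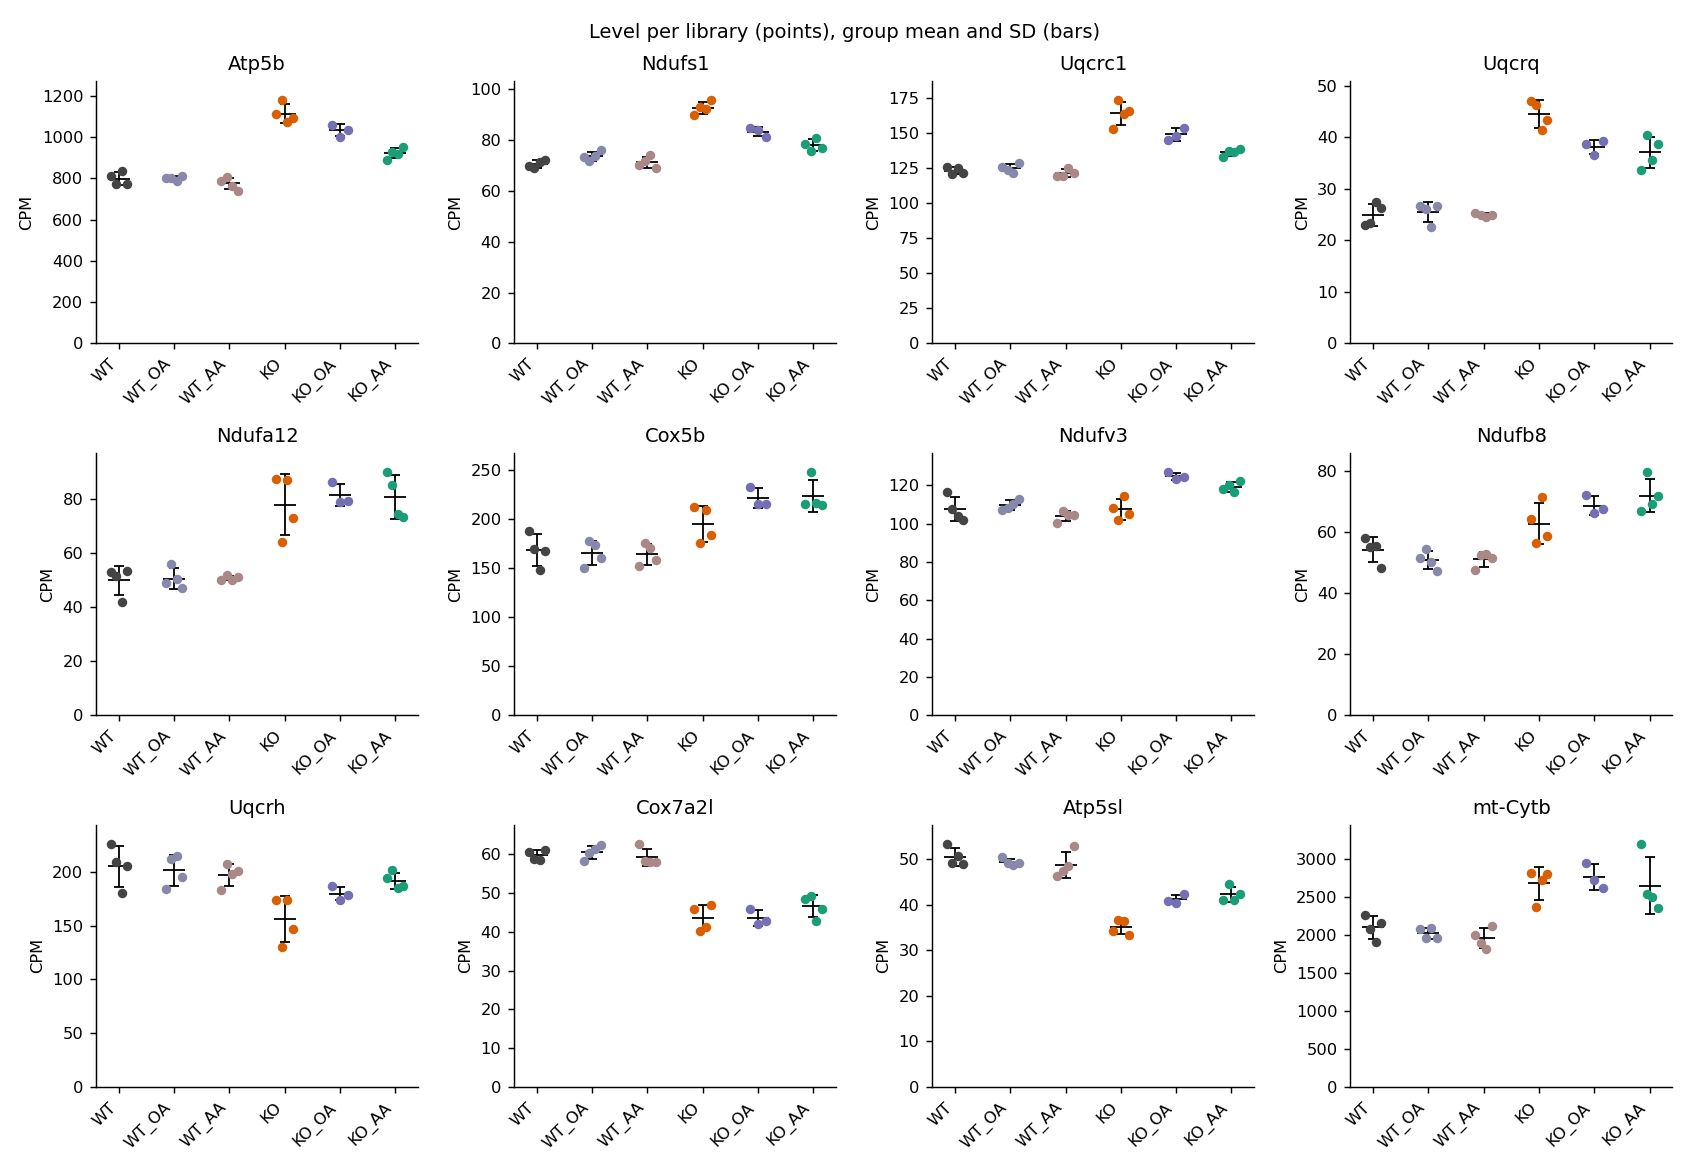
CPM in each library (vertical axis) of 12 genes in the 6 groups, points being libraries and the bar the group mean. Atp5b, Ndufs1, Uqcrc1 and Uqcrq stand highest in untreated KO, while Uqcrh, Cox7a2l and Atp5sl stand lowest there or in KO with OA.

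Of the 11 mitochondrial rows tested, 8 were higher in KO than in WT in each of the 3 treatments and 0 were lower. They were not the same 8 each time, and 6 were higher in all 3. Untreated and with OA the 8 included mt-Co3, which had at most 45 counts in a library. The medians of the 11 rows were 0.286 untreated, 0.379 with AA and 0.408 with OA, beside nuclear medians of 0.29, 0.22 and 0.25. With the chromosome 1 copies added, as below, the medians over 12 mitochondrial genes were 0.253, 0.279 and 0.299. The values with AA include KO with AA replicate 1, which is described below. In the complex I set, mt-Nd1 read 1552, 1666, 1335 and 1579 CPM in untreated WT and 2048, 1913, 2153 and 2137 CPM in untreated KO. The groups did not overlap, and the change was 0.43 (SE 0.0681, adjusted p = 1.9e-06). The change of mt-Nd2 was 0.47 (adjusted p = 1.64e-06), and of mt-Nd5 0.22 (adjusted p = 0.00459). The complex III gene mt-Cytb, which encodes cytochrome b, rose by 0.35 untreated, 0.43 with AA and 0.45 with OA (adjusted p at most 2.25e-05). In contrast mt-Co1, the catalytic subunit of complex IV, read 3783 ± 127 CPM in untreated WT and 3918 ± 260 CPM in untreated KO (SD, n = 4 each), a change of 0.05 (adjusted p = 0.485). It did not pass with AA (0.04, adjusted p = 0.617) or with OA (0.08, adjusted p = 0.308). The change of mt-Nd4 was 0.22 (adjusted p = 0.015), lost without KO replicate 4 (adjusted p = 0.0892), and of mt-Nd6 0.29 (adjusted p = 0.0117), lost without KO replicate 3, KO replicate 4 or WT replicate 3 (adjusted p 0.057 to 0.0853). By DESeq2 neither passed (adjusted p = 0.0851 for mt-Nd4 and 0.0622 for mt-Nd6). The gene mt-Nd6 lies on the minus strand, and its end overlaps mt-Nd5 on the plus strand. Whether the counting used strand is not given, so its count may hold reads of the other strand.

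A single library weighed on the mitochondrial rows. KO with AA replicate 1 read 22220 CPM over the 13 rows, while the other 3 libraries of its group read 16610 to 16830. Its nuclear sum, 5826 CPM, was the lowest of that group. Its ratio of mitochondrial to nuclear CPM was 3.81, against 2.63 to 2.80 in the others. Without it, 6 rather than 8 mitochondrial rows were higher in KO than in WT with AA. The change of mt-Nd4 there was 0.22 (adjusted p = 0.0156) with the library and 0.06 (adjusted p = 0.332) without it, and that of mt-Nd6 went from 0.26 (adjusted p = 0.0252) to 0.18 (adjusted p = 0.142). The calls for mt-Nd4 and mt-Nd6 with AA were also lost without WT with AA replicate 2 or replicate 3 (adjusted p 0.0506 to 0.101).

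The mitochondrial rows with the fewest counts lay side by side on the mitochondrial genome, and chromosome 1 copies of 3 of them held many counts. From MT:7013-7696, where mt-Co2 lies, to mt-Co3, which ends at base 9390, the 4 rows had few counts: mt-Co2 0 to 7, mt-Atp8 0 to 8, mt-Atp6 5 to 23 and mt-Co3 6 to 45 per library. On one side mt-Co1 had 140603 to 230201 counts; on the other mt-Nd3 had 172 to 754, and mt-Nd4l beyond it 26644 to 60458. No annotated copy of mt-Atp8 was among the 7. Gm28661, the copy of mt-Co2, held 54725 to 113428 counts. Gm10925, the copy of mt-Atp6 at chr1:24613974-24614651, held 207401 to 326761, and Gm28437, the copy of mt-Co3 at chr1:24613189-24613971, held 42775 to 68568. Over their aligned lengths of 681, 678 and 783 bases these 3 copies had 0 mismatches to the mitochondrial genes. In mt-Nd4l and mt-Nd4, whose copies also had 0 mismatches, the opposite split was seen, with at most 20 and 35 counts on the copy. For mt-Nd3, whose copy differs by the single T3C shown above, 21.6 to 43.2% of the counts of the pair lay on the copy. Its change between untreated genotypes was 0.99 (adjusted p = 2.1e-08), from 5.12 to 10.1 CPM, and 0.75 (adjusted p = 8.62e-08) with the copy added. The value of mt-Co3, 0.97 (adjusted p = 0.0371), rests on at most 45 counts and was lost without KO replicate 2 (adjusted p = 0.334), or without WT replicate 1, 2 or 4 (adjusted p 0.0602 to 0.101).

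**Figure D4:**
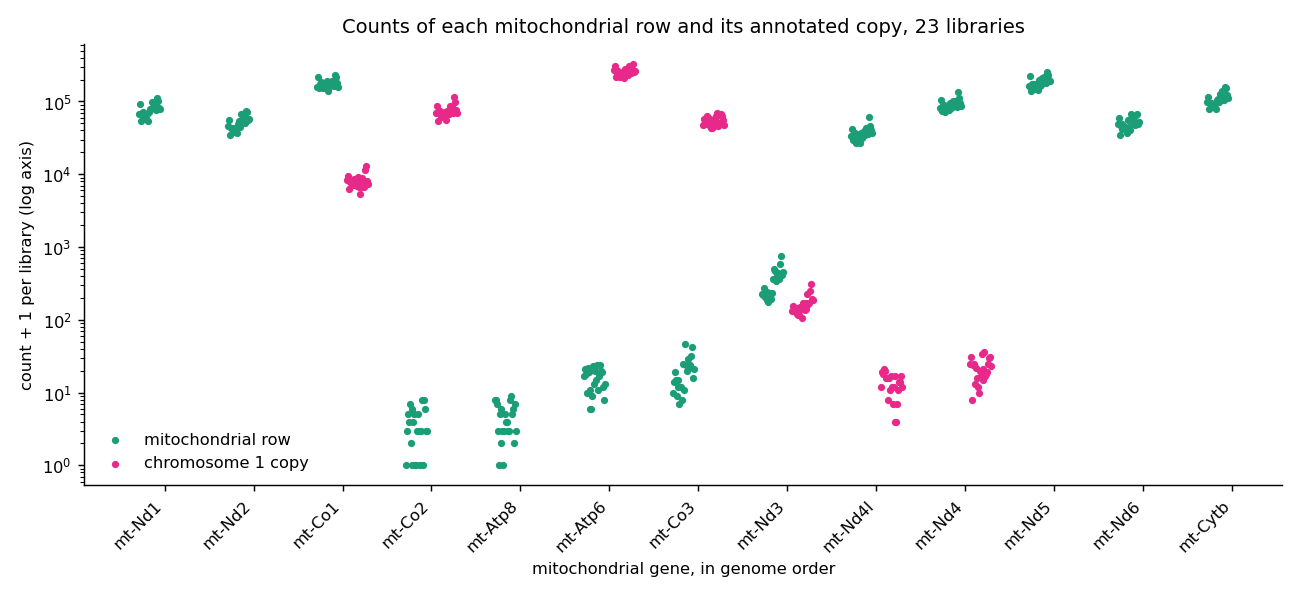
Counts plus 1 per library (logarithmic vertical axis) for the 13 mitochondrial rows in their order along the mitochondrial genome and for their chromosome 1 copies where they have one; each point is a library. The rows of mt-Co2, mt-Atp8, mt-Atp6 and mt-Co3 sit at most at 45 counts, and the copies of mt-Co2, mt-Atp6 and mt-Co3 at 42775 counts or more.

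Adding each chromosome 1 copy's counts to its mitochondrial gene, a step chosen after the values were seen, gave 12 testable mitochondrial genes. Of these 9 were higher in KO untreated, 10 with AA and 9 with OA, and 0 were lower. Of all 18009 genes tested in this fit, 49.8%, 42.7% and 43.1% passed in either direction, in the same order. In untreated cells mt-Co2 with its copy was higher by 0.21 (adjusted p = 0.0278) and mt-Co3 with its copy by 0.40 (adjusted p = 3.79e-05), while mt-Atp6 with its copy changed by 0.09 (adjusted p = 0.1). With OA in both genotypes mt-Co3 with its copy changed by -0.19 (adjusted p = 0.0704), opposite in sign to the row alone, which read 1.23 (adjusted p = 0.0212). That call was lost without KO with OA replicate 1 or 3, or without WT with OA replicate 1 or 4 (adjusted p 0.0542 to 0.0702). The 13 rows and 7 copies together summed to 24390 ± 1220 CPM in untreated WT and 28210 ± 1540 CPM in untreated KO (SD, n = 4 each), 15.7% apart. With OA the combined sums were 18.2% higher in KO. With AA they were 16.9% higher, and 9.34% higher without KO with AA replicate 1. The libraries of the 2 genotypes did not overlap under either treatment, with that library or without it.

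In WT cells no respiratory chain gene passed with either fatty acid. With AA in WT 0 of 86 passed by edgeR and 0 by DESeq2, with 6 at an unadjusted p under 0.05, where 0.416% of the table passed, 0.161% higher and 0.255% lower. With OA in WT 0 passed by edgeR and 0 by DESeq2, with 2 at an unadjusted p under 0.05, where 3.73% of the table passed, 1.23% higher and 2.50% lower. Leaving out WT replicate 3 gave 1 with OA. The gene with the lowest unadjusted p with AA was Ndufs4, a small subunit of the complex I peripheral arm, at -0.12 (adjusted p = 0.326), and with OA Ndufs7, an iron-sulfur subunit, at 0.19 (adjusted p = 0.196). The nuclear sum was 5178 ± 126 CPM with AA and 5306 ± 98.3 CPM with OA beside 5320 ± 146 CPM untreated (SD, n = 4 each), and the libraries overlapped.

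In KO cells with AA, part of the nuclear genes were lower than in untreated KO and a few were higher. Of 86 tested, 22 were lower and 7 higher, all of them nuclear, where 27.6% of the table passed, 15.4% lower and 12.2% higher. Their share, 33.7%, is near the background. Complex I had 10 lower and 3 higher of 35, complex III 4 and 1 of 8, complex IV 2 and 2 of 15, and ATP synthase 6 and 0 of 15. The nuclear sum read 5826, 6356, 6015 and 6153 CPM with AA, below the 4 untreated KO libraries and 7.30% lower in the mean. For ATP synthase the 4 libraries with AA read 2844, 3054, 2997 and 3076 CPM, against 3487, 3543, 3339 and 3323 CPM untreated, 12.6% lower and without overlap. The sum of complex I overlapped between these groups, at 1678 ± 63.4 CPM with AA and 1728 ± 37 untreated (SD, n = 4 each), as did that of complex IV, at 765.1 ± 57.6 and 743.9 ± 35.6 CPM. This comparison shares its 4 untreated libraries with that of KO and WT, so the falls and rises of a gene in them are not independent.

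Atp5b read 891, 930, 917 and 954 CPM in KO with AA, between the untreated KO and WT groups and overlapping neither. Its fall was 0.27 (SE 0.0352, adjusted p = 1.75e-07). Atp5a1 fell by 0.28 (adjusted p = 1.07e-05) and Atp5h by 0.27 (adjusted p = 2.85e-05). In complex III, Uqcrc1 fell by 0.27 (adjusted p = 7.35e-08) and Uqcrq by 0.26 (adjusted p = 0.000522), while Uqcrh rose by 0.30 (adjusted p = 0.000464). The largest falls that passed were in complex I: Ndufc2, a subunit of the membrane arm, read 17.2, 19.04, 16.04 and 18.2 CPM in untreated KO and 13.2, 13.9, 12.6 and 12.2 CPM with AA. The groups did not overlap, and Ndufc2 fell by 0.44 (SE 0.0782, adjusted p = 3.84e-05). WT cells with AA read 12.7 ± 0.635 CPM (SD, n = 4). Ndufa11, also of the membrane arm, fell by 0.41 (adjusted p = 0.000127), and Ndufs1 by 0.25 (adjusted p = 2.59e-07).

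Genes that rose with AA in KO included Ndufv3, a small subunit of the NADH-binding module, by 0.15 (adjusted p = 0.00194), and Atp5sl by 0.26 (adjusted p = 1.01e-05). Ndufb8 rose by 0.20 (adjusted p = 0.0102), which was lost without KO replicate 2 (adjusted p = 0.071). Cox5b, a subunit on the matrix side of complex IV, rose by 0.20 (adjusted p = 0.0129) and Cox6c by 0.15 (adjusted p = 0.0296). Both calls were lost without KO replicate 2, KO replicate 4 or KO with AA replicate 2 (adjusted p 0.0564 to 0.173). In Cox6b1, which faces the intermembrane space, the direction was opposite, a fall of 0.29 (adjusted p = 7.56e-05), and Cox7b fell by 0.19 (adjusted p = 0.0011). Complex IV genes therefore moved in both directions, and their sum did not separate.

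No mitochondrial row passed with AA in KO, with 1 at an unadjusted p under 0.05 and 0 by DESeq2. Leaving out KO with AA replicate 1 gave 3 lower, mt-Nd1 by 0.28 (adjusted p = 0.000192), mt-Nd4 by 0.19 (adjusted p = 0.00403) and mt-Co1 by 0.11 (adjusted p = 0.0436). Leaving out KO replicate 2 also gave 3 lower: mt-Nd1 by 0.20 (adjusted p = 0.0392), mt-Nd2 by 0.18 (adjusted p = 0.0392) and mt-Nd6 by 0.24 (adjusted p = 0.0449). KO replicate 2 was the lowest of the untreated KO libraries in each of these 3 genes. Its removal therefore raises the untreated mean they are set against. Leaving out KO replicate 1 gave 0. With the copies added, 2 were lower, mt-Co3 by 0.40 (adjusted p = 0.00011) and mt-Atp6 by 0.13 (adjusted p = 0.0219). A difference in response between the genomes was not tested.

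With OA in KO 11 genes were lower and 5 higher, where 23.2% of the table passed, 12.7% lower and 10.5% higher. Their share, 18.6%, lay under the background. The count of 16 was 7 without KO with OA replicate 3, 8 without KO with OA replicate 2 and 9 without KO replicate 2. Ndufs1 fell by 0.15 (adjusted p = 0.00147), Uqcrc1 by 0.14 (adjusted p = 0.00409) and Cox7b by 0.18 (adjusted p = 0.00743). Ndufv3 read 127, 123 and 124 CPM with OA, above the untreated KO libraries at 108, 102, 114 and 105 CPM, a rise of 0.22 (SE 0.0401, adjusted p = 9.21e-05). Atp5sl rose by 0.23 (adjusted p = 0.000402). The sum of ATP synthase was 3249 ± 49.1 CPM (SD, n = 3), 5.10% under untreated KO without overlap. No mitochondrial row passed, with 0 at an unadjusted p under 0.05 and 0 by DESeq2; with the copies added mt-Co3 was lower by 0.47 (adjusted p = 5.3e-05).

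**Figure D5:**
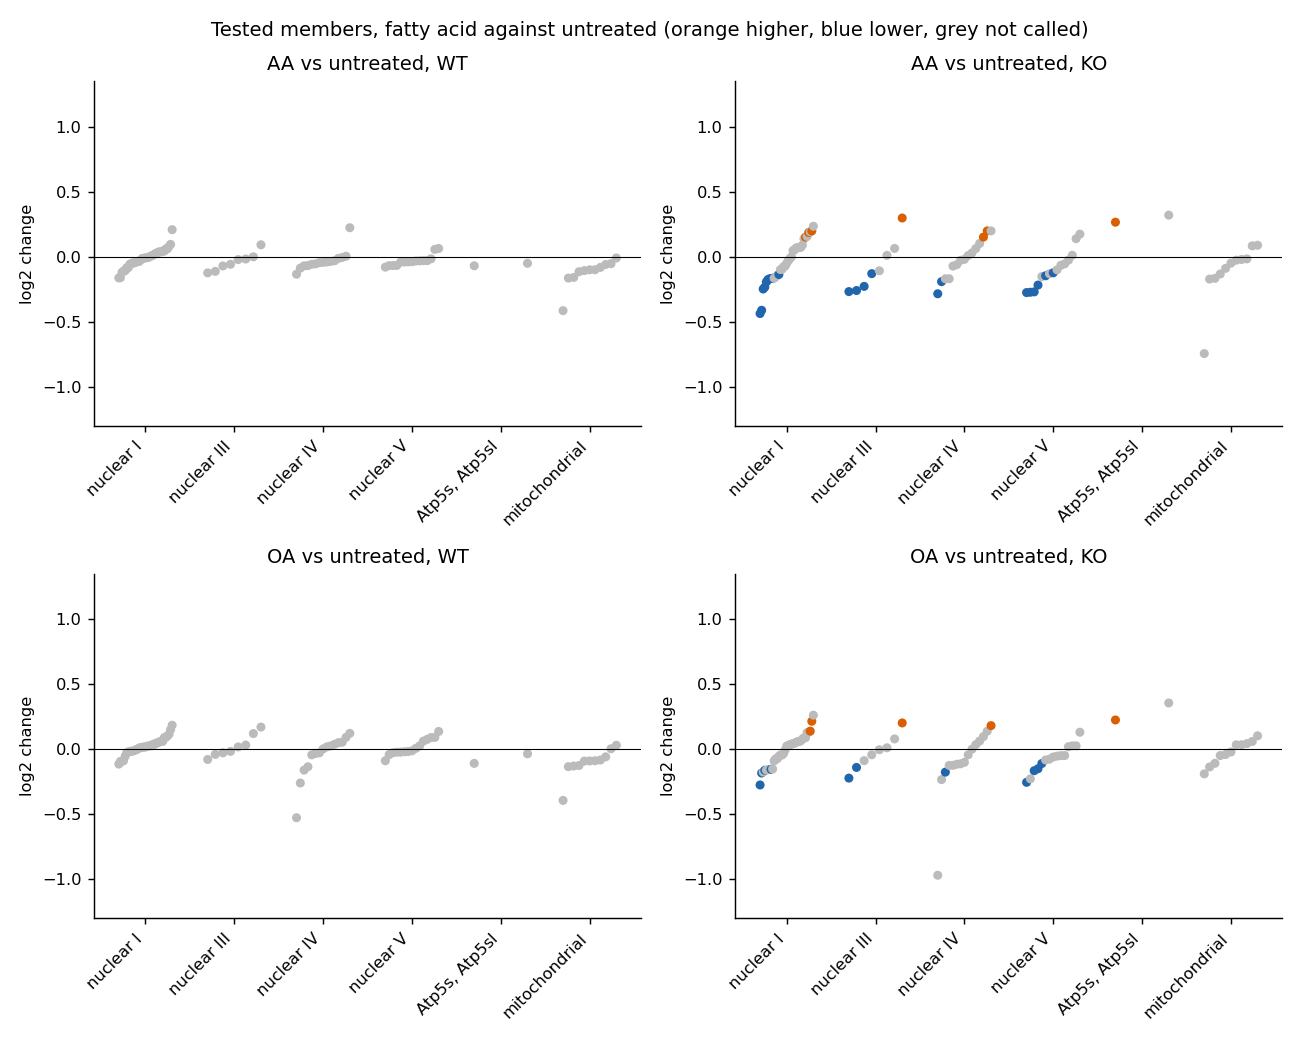
Log2 change of each tested gene with AA or OA against untreated cells (vertical axis) by complex and genome, in WT and in KO; orange points were higher, blue points lower and grey points did not pass edgeR's test at an adjusted p of 0.05. The WT panels hold no coloured point, and the KO panels hold 29 with AA and 16 with OA.

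The difference in response between the genotypes was tested as an interaction. For AA 16 genes passed, 11 with a more negative and 5 with a more positive change in KO than in WT, where 13.9% of the table passed, 7.98% and 5.97% by side. Their share was 18.6%. Ndufc2 had an interaction of -0.48 (adjusted p = 0.00282), Ndufa11 of -0.45 (adjusted p = 0.00676), Ndufs1 of -0.26 (adjusted p = 0.00014) and Uqcrc1 of -0.25 (adjusted p = 0.000326). In ATP synthase the values were -0.23 for Atp5b (adjusted p = 0.00133) and -0.24 for Atp5a1 (adjusted p = 0.00817). On the positive side were Uqcrh at 0.36 (adjusted p = 0.00596), Ndufa6 at 0.35 (adjusted p = 0.00691), Atp5sl at 0.32 (adjusted p = 3e-04) and Ndufv3 at 0.20 (adjusted p = 0.00832). No mitochondrial row passed, with 0 at an unadjusted p under 0.05 and 0 by DESeq2.

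For OA 10 genes passed the interaction, 8 more negative and 2 more positive in KO, where 12.5% of the table passed, 6.62% and 5.90% by side. Their share was 11.6%, close to the background. The count was 6 without WT replicate 1, WT replicate 2 or KO with OA replicate 3, 5 without WT with OA replicate 2 or KO with OA replicate 1, and 4 without WT with OA replicate 4, KO replicate 2 or KO with OA replicate 2. Ndufs1 had an interaction of -0.21 (adjusted p = 0.00281), Atp5d, a subunit of the central stalk, of -0.34 (adjusted p = 0.0109) and Atp5sl of 0.26 (adjusted p = 0.00478). No mitochondrial row passed, with 0 at an unadjusted p under 0.05 and 0 by DESeq2, though with the copies added mt-Co3 had an interaction of -0.58 (adjusted p = 0.000507).

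AA and OA were also set against each other. In WT 0 genes passed by edgeR and 0 by DESeq2, with 7 at an unadjusted p under 0.05, where 2.95% of the table passed, 1.95% higher and 0.999% lower; leaving out WT with OA replicate 1 gave 1. In KO 9 genes were lower and 1 higher with AA than with OA, where 14.0% of the table passed, 7.30% lower and 6.73% higher. Their share, 11.6%, lay under the background. Ndufs4 was lower by 0.20 (adjusted p = 0.000947), Uqcrb, the complex III subunit next to cytochrome b, by 0.23 (adjusted p = 0.00143), Atp5f1, the stalk subunit b, by 0.15 (adjusted p = 0.0022) and Atp5b by 0.16 (adjusted p = 0.00275). The 1 gene higher with AA was Ndufa1, an X-linked subunit needed to build complex I, by 0.31 (adjusted p = 0.00839), which was lost without KO with OA replicate 1 (adjusted p = 0.0699). Without KO with AA replicate 1, mt-Nd1 was lower by 0.18 (adjusted p = 0.0401) and mt-Co1 by 0.16 (adjusted p = 0.0172), and without KO with AA replicate 3 mt-Nd3 was higher by 0.37 (adjusted p = 0.0438).

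Promoters were read for motifs of factors known to control nuclear respiratory genes: NRF1 (letters GCATGCG), GABPA (CCGGAAG) and YY1 (AAGATGG), each on both strands. RefSeq windows of GRCm38.p6 from 250 bases before to 50 after the start were matched for 63 of the 80 nuclear genes, in 68 windows. At least 1 of the motifs was in 41.2% of these windows, against 17.3% of all 32851 windows. By motif the shares were 14.7% against 3.58% for NRF1, 20.6% against 8.86% for GABPA and 14.7% against 6.34% for YY1. A pair of promoters is shown with the motif letters in capitals, Atp5j because its window held all 3 motifs and Uqcrc1 because it was higher in untreated KO and lower with either fatty acid in KO; a full NRF1 palindrome puts 1 more letter in capitals.
Atp5j: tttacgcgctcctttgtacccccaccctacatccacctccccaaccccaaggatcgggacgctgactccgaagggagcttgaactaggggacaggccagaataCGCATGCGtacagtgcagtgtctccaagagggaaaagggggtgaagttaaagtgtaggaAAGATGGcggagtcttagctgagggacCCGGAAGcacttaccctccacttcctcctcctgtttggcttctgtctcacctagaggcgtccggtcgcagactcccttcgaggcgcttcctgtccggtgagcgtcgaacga
Uqcrc1: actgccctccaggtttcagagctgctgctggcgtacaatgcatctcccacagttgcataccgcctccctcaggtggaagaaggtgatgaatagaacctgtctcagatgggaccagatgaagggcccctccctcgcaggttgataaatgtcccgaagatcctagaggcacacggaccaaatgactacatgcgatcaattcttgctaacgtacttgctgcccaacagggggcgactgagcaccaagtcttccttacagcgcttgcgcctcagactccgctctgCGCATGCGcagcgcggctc
The Atp5j window is chr16:84834927-84835226 on the minus strand, where Gabpa begins on the opposite strand, and the Uqcrc1 window is chr9:108936398-108936697 on the plus strand. Of 28 tested genes with at least 1 motif, 20 were higher and 3 lower in untreated KO, with a median of 0.351. Of 33 tested genes with none, 25 were higher and 1 lower, with a median of 0.237. A match in letters is no evidence of binding.

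Genes that serve the same enzymes were read from lists chosen by function, in untreated KO against WT. Of 10 genes for complex II and electron carriers 9 were higher and 0 lower. Cycs, cytochrome c, rose by 0.56 (adjusted p = 6.55e-16), and Etfb, a subunit of electron transfer flavoprotein, by 0.55 (adjusted p = 9.04e-13). Of 15 genes for mitochondrial protein import and folding 15 were higher, among them the chaperonin Hspd1 by 0.74 (adjusted p = 1.7e-19), the import motor chaperone Hspa9 by 0.61 (adjusted p = 1.91e-16) and the outer membrane pore Tomm40 by 0.80 (adjusted p = 8.96e-12). Assembly factors were more mixed, with 10 higher and 1 lower of 15 for complex I, 2 and 2 of 6 for complex III, 12 and 1 of 22 for complex IV and 2 and 0 of 5 for ATP synthase. Coenzyme Q synthesis had 4 higher and 1 lower of 13, with Coq7, its hydroxylase, up by 0.82 (adjusted p = 4.41e-13).

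Genes that make or keep mitochondrial RNA and DNA were also read. Of 21 for mitochondrial transcription and RNA, 11 were higher and 3 lower, including Lrpprc, which stabilises mitochondrial messenger RNA, up by 0.36 (adjusted p = 8.77e-11), and the degradosome enzyme Pnpt1, up by 0.27 (adjusted p = 7.2e-08). Mitochondrial DNA replication had 4 higher and 4 lower of 9. Of 10 regulators of respiratory genes 5 were higher and 3 lower: the coactivator Ppargc1b fell by 0.56 (adjusted p = 1.11e-08) and Perm1 by 0.74 (adjusted p = 9.28e-05), while Hcfc1 rose by 0.32 (adjusted p = 1.3e-08). These counts stand beside 25.6% higher and 24.2% lower in the whole table.

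With AA in KO the carriers had 7 lower and 1 higher of 10, and import 7 lower and 0 higher of 15, where 15.4% of the table was lower and 12.2% higher. Cycs fell by 0.49 (adjusted p = 2.44e-13), Hspd1 by 0.39 (adjusted p = 4.29e-11) and Tomm40 by 0.58 (adjusted p = 4.38e-08). Myc, a regulator that drives growth and mitochondrial genes in activated T cells, fell by 0.47 (adjusted p = 6.11e-11), and its interaction was -0.41 (adjusted p = 5.49e-06). The sum of the NK cell markers was 35.5 to 38.2 CPM in KO with AA against 48.8 to 54.9 in untreated KO. CD8 T cell markers also summed to less with AA, 2190 to 2310 against 2390 to 2470 CPM. Macrophage and monocyte markers summed to more, 6.93 to 8.14 against 6.26 to 6.72 CPM. So did platelet markers, 5.66 to 7.35 against 3.42 to 4.48 CPM. The sums of CD4 T cell, dendritic cell, B cell and erythroid markers overlapped. The part of these marker differences in the gene changes was not tested. Assembly factors had 1 higher and 4 lower of 15 for complex I, 0 and 1 of 6 for complex III, 2 and 5 of 22 for complex IV and 0 and 1 of 5 for ATP synthase. In WT with OA, where no respiratory chain subunit passed, 3 of the 10 carrier genes were higher, against 1.23% of the table: Etfdh, which hands electrons from fatty acid oxidation to ubiquinone, by 0.41 (adjusted p = 1.13e-10), Etfa by 0.18 (adjusted p = 0.00807) and Etfb by 0.18 (adjusted p = 0.0127).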

How the data were processed

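The values are the raw counts per gene that the authors deposited, for 49492 genes and 23 libraries. The submitters' processing notes name Trimmomatic 0.36, the featureCounts counter of Subread (version 1.5.1) and the GRCm38 build. No source at hand states the aligner, the annotation release, or how strand and multimapping reads were counted.

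Genes were filtered with filterByExpr (minimum count 10, minimum total 15), which kept 18015 genes with 99.964% of counts. edgeR 4.0.16 (R 4.3.3, limma 3.58.1) fitted 6 group means to the 23 libraries with TMM factors of 0.961 to 1.03, and p-values were adjusted over all genes within each comparison. The common biological variation was 4.97%. Library pairs within groups differed beyond counting noise (chi-square per degree of freedom 3.1 to 15.4), so none was taken as a duplicate. Of the counts from 1 to 19, 66.5 to 70.7% per library were even numbers, and the cause was not tested. The interaction is the KO change minus the WT change. Alternatives were DESeq2 1.42.0, other scalings and filters, a replicate block, only the groups compared, each library left out, and chromosome 1 copies added. The code was tested on simulated data. Positions, overlaps and 50-base stretches come from the GENCODE mouse annotation and transcripts of GRCm38.

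The members and lists were chosen with earlier results of these data known. Genes were named by rule: all mitochondrial members, named isoform and core subunits, and up to 3 genes per enzyme and direction with the smallest adjusted p; Ndufb6, Ndufa12 in untreated cells, Ndufs4 and Ndufs7 in WT, and list genes beyond the first 3 by p were chosen after their values were seen.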

Additional observations from a re-analysis of the deposited data

Results flagged for a closer look

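A library that stood apart from the other 3 of its group was looked for in 325 groups of 4 values, and 27 were found; chance alone gives about 1 in 20. KO with AA replicate 1 was the highest of its group in the mitochondrial rows (22220 CPM), the chromosome 1 copies (9636), both together (31860), the mitochondrial complex I rows (14330), mt-Nd1 (2288), mt-Nd4 (2779) and mt-Nd4l (1232). KO with AA replicate 2 was highest in the nuclear complex IV sum (850.9 CPM), Cox5b (247.8) and Ndufb10 (53.34). Among untreated KO libraries, replicate 2 was highest in Atp5d (17.11 CPM) and lowest in mt-Nd2 (1076), replicate 3 was lowest in Ndufb10 (52.42) and Ndufs3 (23.77), and replicate 4 was lowest in Ndufa3 (3.908) and highest in mt-Nd4l (893.2).

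In untreated WT, replicate 3 was lowest in the mitochondrial complex I rows (8943 CPM) and highest in Ndufc2 (13.88), and replicate 4 was lowest in Ndufa10 (145.7). In WT with AA, replicate 1 was highest in Atp5o (36.95 CPM) and Cox7a2l (62.63), replicate 2 highest in Ndufb10 (53.43) and replicate 4 lowest in Ndufa11 (8.667). In WT with OA, replicate 1 was lowest in Atp5j (332.9 CPM), replicate 3 highest in Atp5d (14.86) and lowest in Uqcrq (22.54), and replicate 4 highest in Atp5o (37.32).

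The response to AA differed between genotypes by edgeR's interaction test, as log2 values, in Ndufc2 (-0.479), Ndufa11 (-0.449), Ndufs1 (-0.261), Uqcrq (-0.259), Ndufb7 (-0.254), Uqcrc1 (-0.246), Atp5h (-0.242), Atp5a1 (-0.242), Cox6b1 (-0.241), Atp5b (-0.228) and Ndufb10 (-0.174). It was more positive in KO for Uqcrh (0.356), Ndufa6 (0.349), Atp5sl (0.316), Ndufb8 (0.282) and Ndufv3 (0.198). The call for Uqcrq was lost without WT replicate 1 or 2, KO replicate 1 or 2, WT with AA replicate 1, 3 or 4, or KO with AA replicate 1 or 3 (adjusted p 0.06 to 0.112). That for Cox6b1 was lost without WT replicate 2, KO replicate 1 or 4, WT with AA replicate 1, 3 or 4, or KO with AA replicate 1, 3 or 4 (adjusted p 0.0551 to 0.103). Atp5h was lost without WT replicate 4 or KO with AA replicate 1 (adjusted p 0.0637 to 0.0711), and Ndufb8 without WT replicate 1, KO replicate 2 or KO replicate 4 (adjusted p 0.0502 to 0.0629).

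For OA the interaction passed in Ndufc2 (-0.366), Atp5d (-0.344), Ndufs7 (-0.336), Uqcrq (-0.254), Cox7b (-0.227), Ndufb7 (-0.223), Ndufs1 (-0.214), Uqcrc1 (-0.158), Ndufv3 (0.188) and Atp5sl (0.260). Of these, Ndufs1, Atp5d and Atp5sl passed without any single library; Ndufc2, Ndufs7, Uqcrq, Cox7b, Uqcrc1 and Ndufv3 each did not pass without at least 3 different ones (adjusted p up to 0.157), and Ndufb7 was not followed this way. The counts on nuclear copies of mitochondrial genes lay outside the genes compared, with medians per library of 254746 on Gm10925, 70695 on Gm28661, 53545 on Gm28437 and 7954 on Gm29216.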

How the results depend on the processing

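Leaving out single libraries moved the count for the OA interaction by over 1.5 times in 8 of 15 fits. For OA in KO it did so in 3 of 7. For OA in WT, and for AA against OA in WT, it did so in 1 of 8 each. Apart from this, the counts of genes past the threshold moved by over 1.5 times in few settings. Upper quartile factors gave 6 genes for the OA interaction in place of 10, and a fit of only the groups compared also gave 6, with 2 for AA against OA in WT in place of 0. Without the low-count filter 1 passed for AA in WT, 1 for OA in WT and 4 for AA against OA in WT; with the chromosome 1 copies added 1 passed in that comparison. The value of mt-Co3 in KO against WT with OA reversed to -0.19 (adjusted p = 0.0704) once its copy was added. Leaving out single libraries gave 63 to 68 genes for KO against WT untreated, 61 to 65 with AA and 53 to 61 with OA. It gave 0 for AA in WT, 25 to 30 for AA in KO, 0 to 1 for OA in WT, 7 to 19 for OA in KO, 0 to 1 for AA against OA in WT, 7 to 10 in KO, 13 to 18 for the AA interaction and 4 to 12 for the OA interaction. DESeq2 gave 66, 64 and 60 genes for the genotype comparisons, 29 for AA in KO and 14 for OA in KO. With a replicate block the counts were 68, 64 and 61 for genotype, 0, 0 and 0 in WT, 30, 13 and 9 in KO, and 16 and 7 for the interactions. Replicate numbers did not pair the libraries: 1 of 55 same-numbered pairs correlated above 0.1 (range -0.0375 to 0.11), and 5 of 23 libraries correlated best with their own number. Of all genes called with upper quartile factors, 28.2% were higher for AA in WT, against 38.7% by TMM, and 57.7% against 47.1% for the OA interaction. Of 159 named calls, 7 were lost under DESeq2, 7 with the block, 7 with only the groups compared, 6 with a stricter filter, 6 with upper quartile factors, 3 without a filter, 1 with RLE factors and 0 when scaling left out mitochondrial genes. The cause of these losses was not tested. The rows of mt-Co2, mt-Atp8, mt-Atp6 and mt-Co3 had at most 45 counts in a library. For mt-Co2, mt-Atp6 and mt-Co3 many more lay on the chromosome 1 copies. What keeps these rows low was not tested.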

Other observations

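The 2 ribosomal RNAs of the mitochondrial genome, which are no members of the respiratory chain and were chosen after their values were seen, went the other way from its messenger RNA rows. mt-Rnr1 read 147, 140, 147 and 150 CPM in untreated WT and 66.7, 61.2, 64.3 and 71.2 CPM in untreated KO, a fall of 1.15 on the log2 scale (edgeR, adjusted p = 2.02e-20). With AA in both genotypes its log2 change was -0.55 (adjusted p = 9.82e-12), and the change with OA in both was -1.07 (adjusted p = 3.22e-18). In KO cells with AA it read 102.6 ± 10.5 CPM (SD, n = 4), a rise of 0.64 (adjusted p = 2.12e-12), and the AA interaction was 0.60 (adjusted p = 1.18e-07). mt-Rnr2 fell by 0.51 in untreated KO (adjusted p = 3.69e-14) and rose by 0.35 with AA in KO (adjusted p = 3.39e-09). The libraries were made from polyadenylated RNA, so these counts are of the part of ribosomal RNA that was captured.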
